A study of Mus musculus with 20 samples.

Results

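The hepatic transcripts of the cytochrome P450 (P450) families 2, 3 and 4 were followed in mice on a high-fat diet (HFD) that were exposed to polychlorinated biphenyls (PCBs). The genes were chosen by symbol. Every gene of the count table named Cyp2, Cyp3 or Cyp4 directly followed by a letter was taken if its counts in the 20 livers added up to 10 or more. Of 78 such genes in the table, 6 were set aside by name because they are the usual readouts of the xenobiotic receptors CAR and PXR (Cyp2b10, Cyp2b9, Cyp2b13, Cyp2c55, Cyp2c29 and Cyp3a11), and 15 had fewer than 10 counts in total. The remaining 57 genes, all protein-coding, are described here, out of 15522 genes tested and 21780 in the table. They comprise 4 Cyp2a, 12 Cyp2c, 8 Cyp2d, 5 Cyp2j, 6 Cyp3a, 6 Cyp4a and 7 Cyp4f genes and 9 genes of smaller subfamilies. Of the 57 genes, 45 had a mean of at least 1 CPM (counts scaled to library size) and 12 were below it.

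All 20 mice were C57BL/6J males that received a diet with 42% of its energy from fat, so no group shows the effect of the diet itself. There were 5 HFD control mice, 5 HFD + Aroclor mice, 5 HFD + PCB 126 mice and 5 HFD + Aroclor + PCB 126 mice, the last called the combined exposure here. Aroclor 1260 is a commercial mixture made up mainly of non-dioxin-like congeners, and PCB 126 is a dioxin-like congener that binds the aryl hydrocarbon receptor (AhR). The doses were 20 mg/kg Aroclor 1260 and 20 µg/kg PCB 126, each given once by gavage after 2 weeks of diet, when the mice were 10 weeks old, and controls received vehicle. Each group thus stands for 1 dose and 1 time. The labels give 12 weeks for the experiment.

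P450s of these families are heme enzymes of the endoplasmic reticulum that insert 1 atom of molecular oxygen into a substrate with electrons delivered by P450 oxidoreductase and cytochrome b5. Families 2 and 3 oxidise drugs, steroids, bile acids and other foreign compounds, and several Cyp2c and Cyp2j enzymes form epoxides of arachidonic acid. Family 4 hydroxylates fatty acids and eicosanoids at or near the end of the chain. In the liver most of them are made by hepatocytes, and nuclear receptors, the hepatocyte factors HNF4A and C/EBPα, and growth hormone set their levels.

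The total count per library was 21836506 to 36854887. The 57 genes took 3.06% to 4.5% of these counts, and Cyp2e1 alone took 1.55% to 2.37%. Each library was also described by its GC slope, which is the slope of its log2 CPM, relative to the mean of all libraries, per 10 percentage points of GC content of a gene's transcripts. The slope was 0.26 ± 0.19 (SD, n = 5) in HFD control, 0.01 ± 0.09 with Aroclor, 0.12 ± 0.21 with PCB 126 and -0.39 ± 0.21 with the combined exposure. The slopes of the combined exposure and of HFD control differed (exact permutation test, two-sided, p = 0.00794, adjusted p = 0.0238 over 3 exposures), as did those of Aroclor and HFD control (exact permutation test, adjusted p = 0.0357), so results are given as counted and after a correction for GC content, in which a smooth curve of each library's deviation on GC content was taken out. The summed levels of the marker lists were in overlapping ranges in HFD control and the combined exposure for hepatocytes (77000 to 85700 against 71400 to 99600 CPM), macrophages, endothelial cells, cholangiocytes, lymphocytes, neutrophils and adipocytes. For stellate cells they were 121 to 233 CPM against 255 to 317 CPM, and for pancreas 14.7 to 22.1 CPM against 10.6 to 14.5 CPM. Most of the hepatocyte sum was Alb (mean 63400 CPM in HFD control) and most of the stellate cell sum was Dcn (131 CPM). The log2FC of Dcn with the combined exposure was 0.60 as counted and 0.00 after the GC correction. Of the hepatocyte markers, 3 of 6 were lower with the combined exposure (1 of 6 after the GC correction), and of the stellate cell markers 3 of 5 were higher and 1 lower (0 after it). Beside these, 15.8% of all genes tested were higher and 17% lower, and 9.13% passed the threshold after the correction. The macrophage marker Adgre1 (log2FC 0.82, adjusted p = 0.0248, edgeR) and the leukocyte marker Ptprc (0.78, adjusted p = 0.00818) were higher, and the endothelial marker Stab2 was lower (-0.50, adjusted p = 0.0077), of which only Stab2 passed after the correction (adjusted p = 0.0424). Each was the only marker of its list past the threshold, and the lists were mixed in direction. A positive log2FC was seen in 2 of 6 macrophage, 3 of 4 lymphocyte and 2 of 5 endothelial markers. The part of these differences in the results below was not tested, and in whole liver fewer cells of a type cannot be told apart from less RNA per cell.

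All enzymes of this superfamily hold their heme through a cysteine in a conserved loop near the carboxy terminus. The coding bases of that loop were read from the GENCODE M21 transcripts (GRCm38) and were found in 56 of the 57 genes. They are shown for the 12 genes that passed the threshold with the combined exposure, 9 higher and 3 lower, because the stretch lets the reader see which of them are near-copies of each other. Each line gives 30 coding bases, 5′ to 3′, with the codon of the heme-binding cysteine in capitals, and the coordinates run from the first to the last base on the chromosome.
Cyp2c54, chr19:40038399-40040201, minus strand: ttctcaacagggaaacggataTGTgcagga
Cyp2c50, chr19:40111408-40113453, plus strand: ttctcaacaggaaaacggataTGTgcagga
Cyp2j5, chr4:96629627-96630720, minus strand: ttctcaatgggaaaaagagctTGTcttgga
Cyp2j6, chr4:96518186-96523712, minus strand: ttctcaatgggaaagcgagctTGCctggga
Cyp2r1, chr7:114550428-114551762, minus strand: ttttctctagggagaagacatTGTcttgga
Cyp3a13, chr5:137895267-137895296, minus strand: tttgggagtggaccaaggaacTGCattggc
Cyp3a25, chr5:145981468-145981497, minus strand: tttggaaatggacccaggaacTGCataggc
Cyp3a59, chr5:146109092-146109121, plus strand: tttggaaatggacccaggaacTGCctagac
Cyp4v3, chr8:45307107-45308407, minus strand: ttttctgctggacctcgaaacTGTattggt
Cyp2d10, chr15:82403077-82403206, minus strand: ttctcagcaggccgcagatcaTGCctgggt
Cyp2d40, chr15:82760065-82760194, minus strand: ttctcagcaggccgtcgagcaTGTctgggt
Cyp4f13, chr17:32924942-32925340, minus strand: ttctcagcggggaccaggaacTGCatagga
Cyp2c50 and Cyp2c54 differed at 1 of the 30 bases, Cyp3a25 and Cyp3a59 at 2, and Cyp2d10 and Cyp2d40 at 4, whereas Cyp2c50 and Cyp3a13 differed at 16. Only the 6 Cyp3a genes had the loop within 1 exon; in the other 50 genes the range spans an intron. The codon was TGC in 32 genes and TGT in 24. Such likeness bears on the counts. Cut into all words of 75 bases, the transcripts of 22 of the 57 genes had fewer than 90% of words found in no other gene. The lowest shares were 42.9% for Cyp2c40, 56.8% for Cyp2c69, 58.7% for Cyp4a12b and 59.2% for Cyp4a12a, and reads of these genes may have been left out or split by the counting. For the 12 genes shown above, the share was 73.3% for Cyp2d10, which shares words with Cyp2d11, 85.9% for Cyp2c54 and 87.6% for Cyp2c50. It was 88.8% for Cyp3a25, 89.2% for Cyp3a59 and at least 93.6% for the other genes shown. Exons of Cyp4v3 also overlap those of Gm45753 on the same strand, and exons of Cyp4f18 those of Zfp961 on the opposite strand.

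Promoters, taken as the 250 bases before the start in the RefSeq table (GRCm38.p6), were given for 44 of the 57 genes. The letters TATAAA, the core of the TATA box, were present in 40.9% of these 44 promoters and in 13.0% of all 27025 promoters, searched on both strands. AGGTCA, a hexamer bound by nuclear receptors, was present in 18.2% against 13.8%, and GCGTG, the core of the AhR response element, in 15.9% against 28.2%. These are matches of letters only. The promoters of a pair of genes that passed the threshold upwards (Cyp3a25 and Cyp3a59) and of a pair that passed it downwards (Cyp2d10 and Cyp2d40) are shown, with any of the motifs in capitals.
Cyp3a25, chr5:146009619-146009868, minus strand: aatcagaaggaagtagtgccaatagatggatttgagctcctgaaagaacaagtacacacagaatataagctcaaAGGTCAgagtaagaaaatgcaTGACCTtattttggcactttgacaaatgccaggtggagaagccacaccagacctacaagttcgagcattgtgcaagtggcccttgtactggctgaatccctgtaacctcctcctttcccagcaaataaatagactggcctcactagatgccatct
Cyp3a59, chr5:146079008-146079257, plus strand: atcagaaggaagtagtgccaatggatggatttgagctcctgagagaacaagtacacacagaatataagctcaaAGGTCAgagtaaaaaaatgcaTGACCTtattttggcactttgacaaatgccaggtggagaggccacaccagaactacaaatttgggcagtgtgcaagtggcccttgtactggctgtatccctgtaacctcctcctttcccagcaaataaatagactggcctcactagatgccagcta
Cyp2d10, chr15:82407195-82407444, minus strand: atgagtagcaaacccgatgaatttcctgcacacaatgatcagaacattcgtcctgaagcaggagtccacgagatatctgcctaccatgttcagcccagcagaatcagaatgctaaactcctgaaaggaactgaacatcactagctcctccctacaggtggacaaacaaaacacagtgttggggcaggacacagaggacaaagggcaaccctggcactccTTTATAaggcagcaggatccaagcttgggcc
Cyp2d40, chr15:82764123-82764372, minus strand: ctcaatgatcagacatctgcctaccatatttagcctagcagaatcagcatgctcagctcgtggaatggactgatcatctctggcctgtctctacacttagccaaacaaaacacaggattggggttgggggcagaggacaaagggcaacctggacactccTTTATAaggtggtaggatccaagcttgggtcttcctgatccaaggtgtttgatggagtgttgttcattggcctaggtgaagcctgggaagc
AGGTCA or its reverse complement occurred 2 times each in Cyp3a25 and Cyp3a59, and TATAAA or its reverse complement 1 time each in Cyp2d10 and Cyp2d40. For Cyp2d40, GENCODE M21 puts the start upstream of the RefSeq start, at base 82764183. By that annotation the last bases of the stretch shown lie within the gene.

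In HFD control, levels were compared between genes as RPKM, which divides the scaled count by the length of a gene's exons in kilobases. Cyp2e1, which oxidises ethanol and acetaminophen, was highest, with 8520, 8350, 9210, 7860 and 7780 RPKM in replicates 1 to 5. It ranked 6 among all genes tested, and its 5 mice were above all mice of the next gene. That gene was Cyp4a10, a fatty acid hydroxylase controlled by PPARα, with a mean of 1280 ± 450 RPKM (SD, n = 5). It was followed by its neighbour Cyp4a14 at 898 ± 363, Cyp2d26 at 617 ± 128, the male-biased testosterone hydroxylase Cyp2d9 at 514 ± 101, the naphthalene-oxidising Cyp2f2 at 488 ± 127 and the coumarin hydroxylase Cyp2a5 at 438 ± 280 RPKM. From Cyp4a10 down to Cyp2a5, the mice of each gene overlapped those of the next, so the order of neighbours is not settled by these mice. Lengths from the longest transcript in place of all exons changed Cyp2d9 from 514 to 798 RPKM and Cyp2e1 from 8350 to 9820 RPKM. At the low end, the female-biased Cyp2a4 had a mean of 1.21 ± 1.49 RPKM, and the female-biased Cyp3a16 and Cyp3a44 had 0.05 ± 0.04 and 0.11 ± 0.06 RPKM. The other female-biased genes of the list, Cyp3a41a and Cyp3a41b, had totals of 6 and 2 counts and were not tested.

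**Figure D1:**
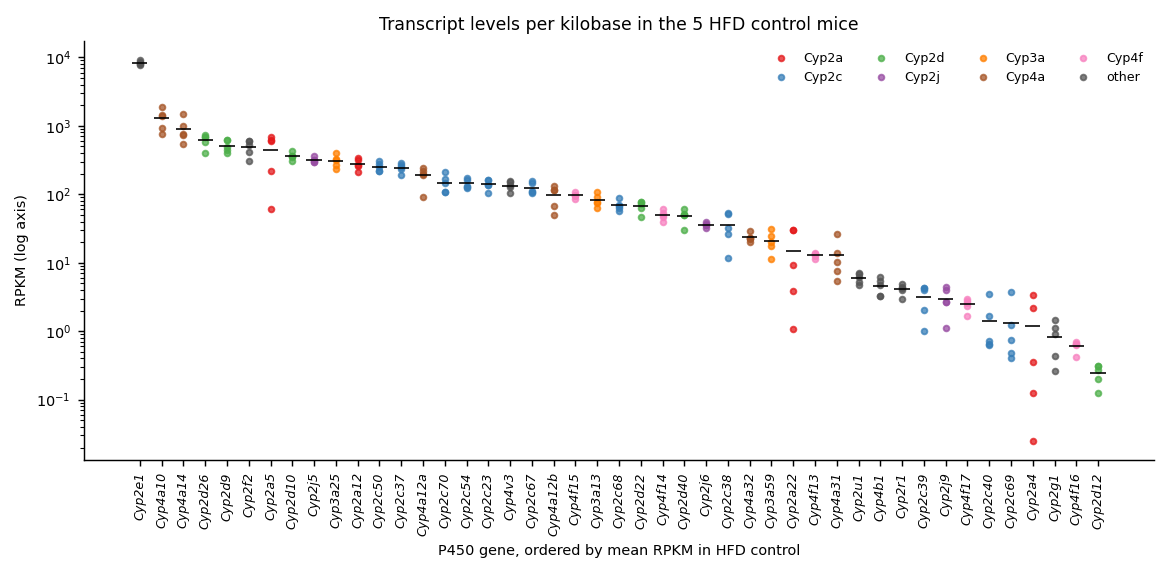
RPKM (log axis) of the 45 P450 genes with a mean of at least 1 CPM in the 5 HFD control mice, ordered by the mean. Points are mice, coloured by subfamily, and bars are means. Cyp2e1 stands above all others at 8350 RPKM, while Cyp2a5, Cyp2a22 and Cyp2a4 spread most.

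Exposure to Aroclor alone was compared with HFD control to ask whether the mixture changed these transcripts. None of the 57 genes passed the threshold of an adjusted p under 0.05 (edgeR's quasi-likelihood test, Benjamini-Hochberg over 15522 genes), and 0% of all genes did. At an unadjusted p under 0.05 there were 5 higher and 4 lower genes, beside 9.64% and 7.6% of all genes, and DESeq2 called 0 of the 57 as well. Of these 9 genes, the 6 with a mean of at least 1 CPM are named after their values were seen. Cyp3a13, Cyp3a59, Cyp2r1 and Cyp2c39 had log2FC of 0.45, 0.46, 0.34 and 0.66, and Cyp2d10 and Cyp2d9 had -0.34 and -0.42. After GC correction the first 4 had 0.26, 0.13, 0.10 and 0.39 and Cyp2d10 and Cyp2d9 had -0.24 and -0.37. As counted, their adjusted p was 0.23 to 0.284 in edgeR's test. The vitamin D hydroxylase Cyp2r1 measured 8.36, 9.16, 9.31, 6.27 and 10.2 CPM in the control mice and 10.4, 11.6, 10.6, 10.9 and 11.3 CPM in the Aroclor mice, so the groups did not overlap, though the difference missed the threshold. The median log2FC of the 57 genes was -0.04, and that of all genes tested was -0.01. All 6 Cyp4a genes had a negative log2FC, from -0.54 to -0.19, none of them past the threshold (lowest adjusted p = 0.332, edgeR).

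With PCB 126 alone, 0 of the 57 genes passed edgeR's threshold, while 0.116% of all genes did (18 genes, among them the AhR targets Cyp1a1 and Cyp1a2 with log2FC of 6.93 and 2.04). At an unadjusted p under 0.05, 4 of the 57 genes were higher and 3 lower, beside 6.87% and 7.81% of all genes. DESeq2 called 2 of the 57, 1 in each direction, namely Cyp2d12 and Cyp2c69, and its count over all genes tested is given in the last section. Cyp2d12, a low-level member of the Cyp2d cluster, was at 1.2, 1.06, 1.18, 0.482 and 0.774 CPM in the control mice and at 1.58, 1.29, 2.88, 3.69 and 3.06 CPM with PCB 126. All 5 exposed mice were above all 5 control mice, 3 of them by a wide margin. The log2FC was 1.39 ± 0.31 (SE, adjusted p = 0.0548, edgeR; 1.41 and 0.0524 after GC correction), and the adjusted p was 0.0487 without HFD + Aroclor + PCB 126 replicate 4 and up to 0.15 without other single mice. Cyp2c69 had a log2FC of -2.32 ± 0.61 (adjusted p = 0.102, edgeR), and 1 control mouse was far above the rest, as described below. Of the other 5 genes, Cyp3a13, Cyp3a25 and Cyp3a57 had log2FC of 0.54, 0.31 and 0.89, and Cyp2c68 and Cyp2c40 had -0.40 and -1.45 (adjusted p 0.191 to 0.338, edgeR). Cyp2c69 and Cyp2c40 had -1.45 and -0.81 without HFD control replicate 4, Cyp2c68 had -0.25 without HFD + PCB 126 replicate 4, and Cyp3a25 had 0.13 after GC correction. The 57 genes had a median log2FC of 0.05, and all genes tested one of -0.02.

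With the combined exposure, 9 of the 57 genes rose and 3 fell against HFD control. The genes that rose were of the Cyp3a (3 genes), Cyp2c (2), Cyp2j (2), Cyp2r and Cyp4v subfamilies, with log2FC from 0.27 to 0.95, and those that fell were of the Cyp2d (2) and Cyp4f (1) subfamilies, with log2FC from -0.67 to -0.43. The 9 genes are 15.8% of the 57 and the 3 genes are 5.26%, while 15.8% of all genes tested rose and 17% fell, so the share of P450 genes that rose was at the background. After GC correction 0 of the 57 genes passed edgeR's threshold, while 9.13% of all genes did, and 5 of the 57 had an unadjusted p under 0.05, beside 24.8% of all genes. Every rise and fall named in the paragraphs on this comparison is therefore one of the values as counted. The median log2FC of the 57 genes was 0.14 as counted and -0.00 after the correction.

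The Cyp3a enzymes oxidise steroids, bile acids and many drugs. Cyp3a25 was at 672, 840, 567, 486 and 650 CPM in the control mice and at 936, 1080, 949, 1250 and 1240 CPM with the combined exposure. All exposed mice were above all control mice, and the log2FC was 0.76 ± 0.15 (SE, adjusted p = 0.00142, edgeR). After GC correction it was 0.18 (adjusted p = 0.509, edgeR). Its close copy Cyp3a59 was at 49.2, 61.5, 40, 23.1 and 35.7 CPM in the control mice and at 66.3, 63.3, 83.7, 92.9 and 74.4 CPM with the combined exposure, again without overlap. The log2FC was 0.86 ± 0.22 (adjusted p = 0.00553, edgeR) and 0.27 after correction. Because 11.2% of the words of Cyp3a25 are found in Cyp3a59, their counts may not be fully independent, which was not tested. Cyp3a13, which shares no words with other genes, went from 184, 226, 266, 220 and 316 CPM to 508, 401, 310, 415 and 409 CPM. Only exposed replicate 3 was below the highest control mouse, and the log2FC was 0.75 ± 0.18 (adjusted p = 0.00392, edgeR), or 0.31 after correction. The other 3 Cyp3a genes were below 1 CPM and did not pass the threshold.

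Of the 12 Cyp2c genes, Cyp2c54 and Cyp2c50, whose enzymes oxidise arachidonic acid, rose and none fell. Cyp2c54 was at 222, 310, 292, 236 and 227 CPM in the control mice and at 499, 559, 304, 504 and 626 CPM with the combined exposure. Exposed replicate 3 was within the control range and the other 4 exposed mice were above it. The log2FC of 0.95 ± 0.22 (adjusted p = 0.0032, edgeR) was the largest of the 12 genes, and was 0.46 after GC correction (adjusted p = 0.187). Cyp2c50 went from 628, 882, 814, 649 and 723 CPM to 1240, 1330, 877, 1140 and 1410 CPM. Here too only exposed replicate 3 was within the control range. The log2FC was 0.70 ± 0.15 (adjusted p = 0.00254, edgeR), or 0.17 after correction. The pericentral Cyp2c37, from the same cluster on chromosome 19, had a log2FC of 0.47 (adjusted p = 0.069), and Cyp2c23, an arachidonic acid epoxygenase also known as Cyp2c44, one of 0.12 (adjusted p = 0.644), both by edgeR's test.

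Cyp2r1 rose from the control values given above to 11.5, 15.1, 12.3, 12.6 and 15 CPM, without overlap, with a log2FC of 0.62 ± 0.15 (adjusted p = 0.00518, edgeR; 0.12 after correction). Cyp4v3, the counterpart of a human fatty acid hydroxylase, was at 403, 488, 587, 513 and 569 CPM in the control mice and at 679, 767, 576, 693 and 770 CPM with the combined exposure. Exposed replicate 3 was within the control range, and the log2FC was 0.45 ± 0.12 (adjusted p = 0.00784, edgeR; 0.09 after correction). The arachidonic acid epoxygenase Cyp2j5 was at 687, 732, 863, 703 and 754 CPM in the control mice and at 1040, 1100, 759, 1020 and 1020 CPM with the combined exposure. Again replicate 3 was the only exposed mouse within the control range. The log2FC of Cyp2j5 was 0.40 ± 0.14 (adjusted p = 0.0293, edgeR) and that of its neighbour Cyp2j6 was 0.27 ± 0.10 (adjusted p = 0.0346). After GC correction they were -0.04 and -0.17. The call of Cyp2j5 was lost in 6 of 20 fits with 1 mouse left out (HFD control replicate 1 or 2, or combined replicate 1, 2, 4 or 5; adjusted p up to 0.0693, edgeR), and that of Cyp2j6 in 10 of 20, with the same mice or HFD control replicate 4 or 5 or HFD + Aroclor replicate 4 or 5 left out (up to 0.0778). The other 10 genes passed the threshold in all 20 of these fits.

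Among the Cyp2d genes, whose enzymes oxidise drugs and steroids, Cyp2d10 was at 595, 600, 705, 512 and 581 CPM in the control mice and at 466, 489, 432, 310 and 391 CPM with the combined exposure. The groups did not overlap, and the log2FC was -0.52 ± 0.14 (adjusted p = 0.00841, edgeR). After GC correction it was -0.19. Cyp2d40 was at 88.4, 90.2, 110, 53.9 and 93.2 CPM in the control mice and at 73, 64.1, 58.6, 32.9 and 45.4 CPM with the combined exposure, where control replicate 4 lay inside the exposed range. Its log2FC of -0.67 ± 0.20 (adjusted p = 0.0151, edgeR) changed least with the correction, to -0.52 (adjusted p = 0.0784). Cyp4f13, of a subfamily that hydroxylates leukotrienes and arachidonic acid, was at 59.7, 62.3, 60.5, 50.3 and 56.5 CPM in the control mice and at 49.8, 50, 43.2, 30.6 and 41.1 CPM with the combined exposure, without overlap (log2FC -0.43 ± 0.12, adjusted p = 0.0114, edgeR; -0.21 after correction). All 7 Cyp4f genes and 7 of 8 Cyp2d genes had a negative log2FC, with medians of -0.27 and -0.35 as counted and -0.06 and -0.11 after correction. Of all 57 genes, 3 had exposed mice entirely above and 2 entirely below the control mice, beside 10.6% and 8.14% of all genes.

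**Figure D2:**
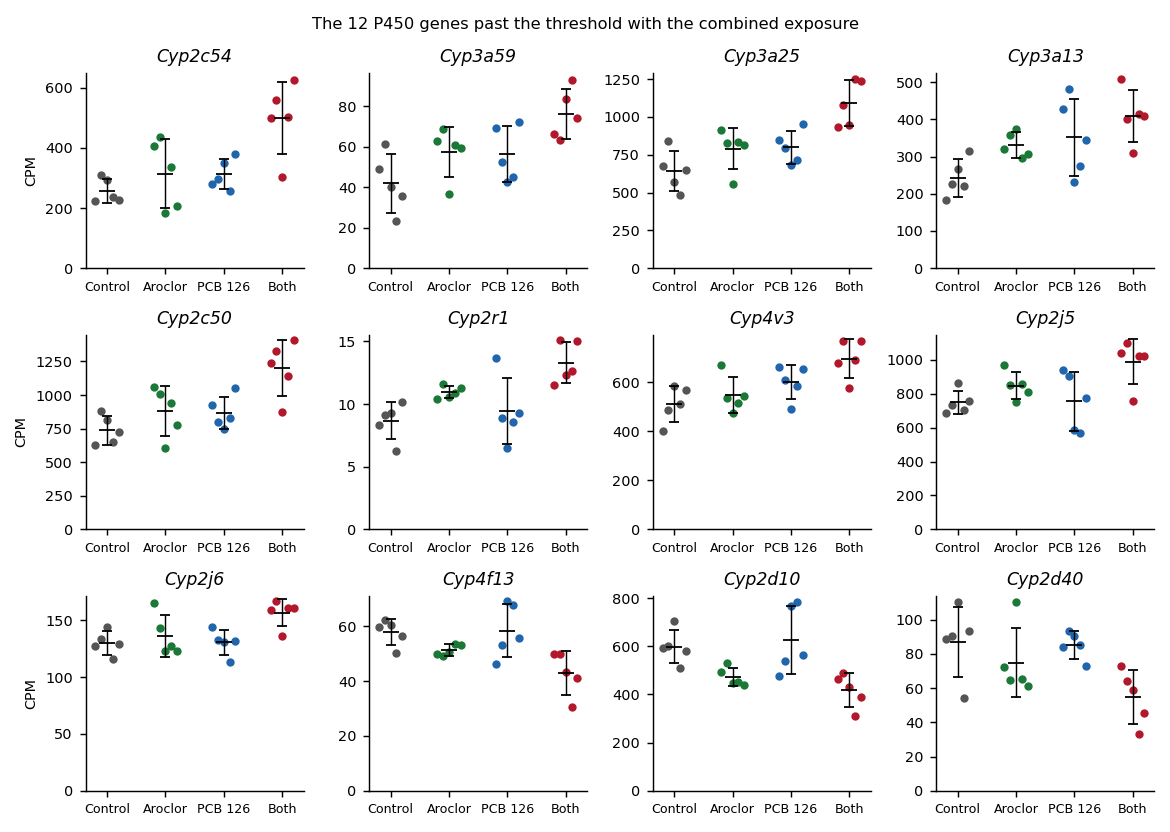
CPM in each mouse (points) with mean and SD (bars) of the 12 P450 genes past the threshold with the combined exposure, in 4 groups of 5 mice. The first 9 panels rose and the last 3 fell against HFD control. The combined group is clear of the controls in Cyp3a59, Cyp3a25, Cyp2r1, Cyp4f13 and Cyp2d10.

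Several abundant members did not pass the threshold with the combined exposure. Cyp2e1 was at 18400, 18000, 19900, 17000 and 16800 CPM in the control mice and at 23200, 21600, 17200, 21500 and 21100 CPM with the combined exposure. Its log2FC was 0.22 (95% interval -0.01 to 0.45, adjusted p = 0.138, edgeR), and its level with PCB 126 alone was 19400, 23200, 21900, 22200 and 18700 CPM (log2FC 0.23, interval -0.00 to 0.46). The periportal Cyp2f2 had a log2FC of -0.21 (interval -0.65 to 0.23), and Cyp2d9 one of -0.44 (interval -0.80 to -0.08, adjusted p = 0.0589). Cyp2u1, which hydroxylates long-chain fatty acids, had a log2FC of -0.62 (interval -1.13 to -0.12, adjusted p = 0.0551). DESeq2 and both stricter filters on low counts put Cyp2d9 and Cyp2u1 past the threshold. Among the fatty acid hydroxylases, Cyp4a10, Cyp4a14 and Cyp4a12a had log2FC of 0.13, 0.16 and 0.14, with 95% intervals that lay between -0.44 and 0.77, and Cyp4f14 one of -0.16. After GC correction the log2FC was 0.03 for Cyp2e1, -0.00 for Cyp2f2, -0.23 for Cyp2d9 and -0.42 for Cyp2u1, and those of the 3 Cyp4a genes and Cyp4f14 changed sign. With single mice left out, Cyp2f2 lay between -0.34 (without HFD control replicate 1) and -0.05 (without combined replicate 4).

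**Figure D3:**
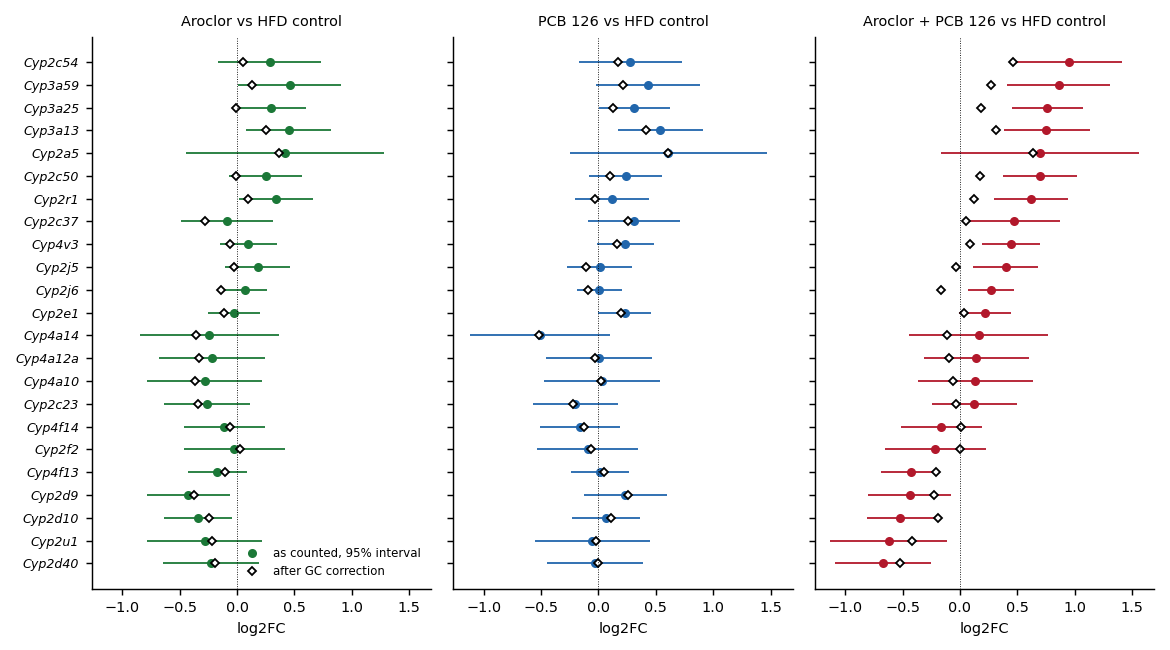
log2FC against HFD control of the 12 P450 genes past the threshold with the combined exposure and 11 genes named for their role, for the 3 exposures. Filled points with lines are values as counted with 95% intervals, and open diamonds are values after GC correction. With the combined exposure the diamonds of most genes lie nearer to 0 than the filled points, with Cyp2a5 and Cyp2d40 among those that moved little.

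The subfamilies differ in base composition. The transcripts of the Cyp3a genes had a GC content of 40.4% to 42.4% and those of the Cyp2j genes 42.7% to 44.3%, while those of the Cyp2d genes had 51% to 55% and those of the Cyp4f genes 52% to 56.1%. The 9 genes that rose with the combined exposure lay between 40.4% and 44.33%, and the 3 that fell between 52.8% and 54.87%. Across the 45 genes with a mean of at least 1 CPM, which share libraries and, in part, words, the log2FC of the combined exposure and GC content had a Pearson's r of -0.58 and a Spearman's rho of -0.68, and after the correction r was 0.02. All genes tested followed the same course. Of the 1413 genes below 42% GC, 53.6% rose with a median log2FC of 0.56, and of the 10 P450 genes there 5 rose with a median of 0.73. Of the 1736 genes between 52% and 54% GC, 22.6% fell with a median of -0.21, and of the 11 P450 genes there 2 fell with a median of -0.27. How much of these differences comes from the GC slope of the libraries and how much from the exposure cannot be told apart, since the slopes differ between the same groups. Without the 4 libraries of most extreme slope (HFD control replicates 1 and 2 and combined replicates 4 and 5, chosen after the slopes were seen), 3 of the 57 genes rose and 0 fell, namely Cyp3a25 (0.76, adjusted p = 0.0372), Cyp3a59 (1.07, adjusted p = 0.0384) and Cyp2a22 (2.26, adjusted p = 0.0474), by edgeR's test. The GC slopes of the kept libraries still did not overlap between the 2 groups. They were 0.229, 0.004 and 0.2 in control replicates 3 to 5, and -0.268, -0.371 and -0.129 in combined replicates 1 to 3. This fit therefore does not separate the slope from the exposure. The count over all genes tested in this fit is given in the last section. For Cyp2a22, the left-out control replicates 1 and 2 were the highest controls, at 102 and 104 CPM. The kept control mice were at 31.8, 3.68 and 13.2 CPM. The kept combined mice, at 81.9, 64.4 and 97.1 CPM, were below both left-out controls.

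**Figure D4:**
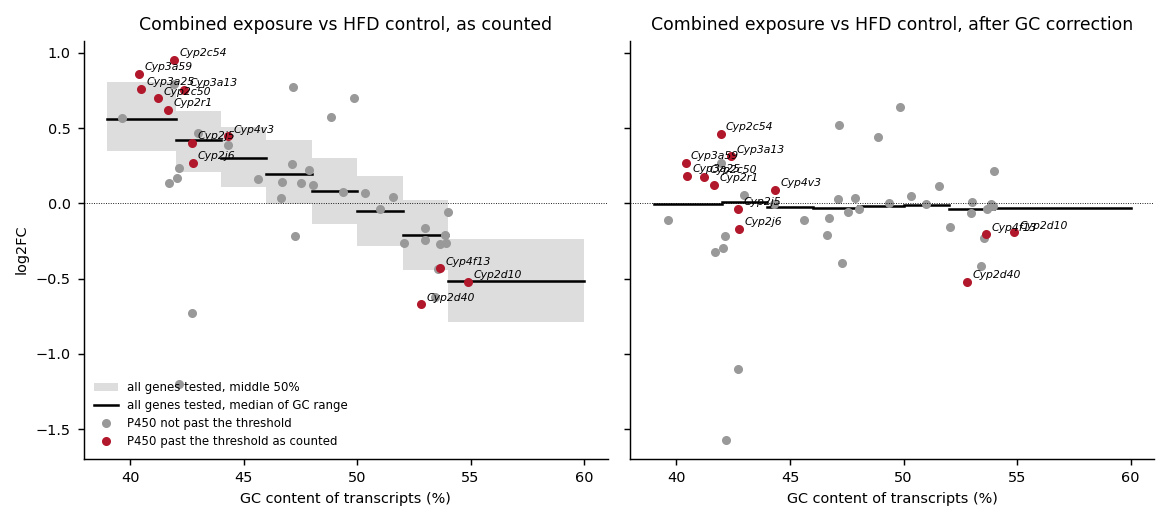
log2FC of the combined exposure against GC content of the transcripts for 45 P450 genes (points; red past the threshold as counted), as counted (left) and after GC correction (right). Black bars are medians of all genes tested in ranges of GC content, and the grey band runs from their lower to their upper quartile; the outermost ranges are drawn only to the edge of the plot. As counted, the P450 genes follow the fall of the medians from 0.56 to -0.51, and after correction they scatter around 0.

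Against each single exposure, the combined exposure was compared to ask what the second agent added. Against Aroclor, 0 of the 57 genes passed edgeR's threshold, beside 0.412% of all genes. At an unadjusted p under 0.05 there were 12 higher and 3 lower genes, beside 9.74% and 13.7% of all genes, and after GC correction 3 of the 57 in either direction, beside 11.2%. DESeq2 called 6 of the 57, all higher, and its count over all genes tested is given in the last section. Cyp3a25, at 910, 828, 554, 834 and 817 CPM with Aroclor, was the gene of at least 1 CPM with the smallest p (log2FC 0.47 ± 0.15, adjusted p = 0.0926, edgeR), with all combined mice above all Aroclor mice. Without combined replicate 3, 5 of the 57 genes were higher, beside 1011 of all 15522 genes past the threshold in either direction.

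Against PCB 126, 5 of the 57 genes were higher and 6 lower, beside 5.64% and 11% of all genes. After GC correction 0 of the 57 genes and 0% of all genes passed edgeR's threshold, with 6 of the 57 at an unadjusted p under 0.05, beside 20% of all genes. The higher genes were Cyp2c54, Cyp2c68, Cyp2r1, Cyp2c50 and Cyp3a25, with log2FC from 0.45 to 0.68 as counted and from 0.05 to 0.29 after correction. The lower genes were Cyp2d12, Cyp2d9, Cyp2d40, Cyp2d10, Cyp4f13 and Cyp4f15, with log2FC from -1.43 to -0.42 as counted and from -1.42 to -0.26 after correction. Cyp2d12 differed most, with 1.01, 0.852, 0.77, 0.654 and 1.33 CPM with the combined exposure against the PCB 126 values above. The combined mouse with the highest value lay inside the PCB 126 range, and the log2FC was -1.43 ± 0.31 (adjusted p = 0.014, edgeR), or -1.42 after correction (adjusted p = 0.0601). Cyp2d9 was at 1140, 1410, 1830, 2230 and 1420 CPM with PCB 126 and at 855, 1310, 1090, 751 and 1030 CPM with the combined exposure (log2FC -0.67 ± 0.17, adjusted p = 0.0188, edgeR). Cyp4f15, a leukotriene hydroxylase, was at 217, 209, 270, 259 and 266 CPM with PCB 126 and at 202, 201, 189, 140 and 183 CPM with the combined exposure, without overlap (log2FC -0.42 ± 0.11, adjusted p = 0.0178). Cyp2c68 had log2FC 0.57 ± 0.17 (adjusted p = 0.0286, edgeR), with PCB 126 replicate 4 lowest at 52.7 CPM. Of the words of 75 bases, only 71.5% for Cyp2c68 and 83.3% for Cyp2d9 were found in no other gene. Reads of both genes may thus have been left out or split by the counting. Only the call of Cyp2d12 was kept in all 20 fits with 1 mouse left out. Without PCB 126 replicate 3 or 4, or without combined replicate 5, 0 of the 57 genes were higher and 1 lower. Without combined replicate 4, 0 were higher and 2 lower, and without combined replicate 2, 0 were higher and 6 lower. The calls over all genes tested also moved in these fits. They ranged from 245 (without combined replicate 5) to 3403 (without PCB 126 replicate 1), beside 875 higher and 1714 lower genes with all mice.

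The interaction of Aroclor and PCB 126 asks whether the combined exposure departs from the sum of both single exposures on the log2 scale. None of the 57 genes passed the threshold, nor did any of all genes tested (0%), by edgeR's test. At an unadjusted p under 0.05, 8 of the 57 genes had a positive and 2 a negative interaction, beside 7.01% and 4.88% of all genes, and DESeq2 called 0 of them. Cyp2d12 had an interaction of -1.56 ± 0.43 (SE, adjusted p = 0.284, edgeR). No gene tested had a lower adjusted p, but this value was shared, for example by the AhR target Cyp1a1 with an interaction of -6.4.

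The spread between mice of a group differed widely among the members. The SD of log2 CPM within groups was 1.52 for Cyp2a4, 1.14 for Cyp2a22, 0.93 for Cyp2c40, 0.91 for Cyp2c69 and 0.83 for Cyp2a5, against 0.14 for Cyp2j6 and 0.16 for Cyp2e1. In HFD control, Cyp2a5 was at 1280, 1430, 1250, 124 and 454 CPM and its neighbour Cyp2a22 at 102, 104, 31.8, 3.68 and 13.2 CPM. Replicates 4 and 5 were the lowest in both genes and also in Cyp2a4, at 0.0439 and 0.215 CPM. With the combined exposure Cyp2a5 was at 1730, 1480, 1200, 1290 and 1670 CPM, and its log2FC of 0.70 had an interval of -0.16 to 1.56 (adjusted p = 0.209, edgeR). Cyp2c69 was at 0.81, 1.26, 2.14, 6.4 and 0.688 CPM in HFD control and Cyp2c40 at 1.28, 1.34, 3.36, 7.15 and 1.46 CPM, with replicate 4 highest in both.

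The deviations of 3 pairs of genes from the same clusters were followed across the 20 mice after their values were seen, each as log2 CPM minus the group mean. Cyp4a10 and Cyp4a14 had a Pearson's r of 0.93 and a Spearman's rho of 0.86, and r was 0.86 without the 2 mice farthest from the median. Cyp4a14 shares no words of 75 bases with any other gene. Cyp4a14 and Cyp4a31 had an r of 0.78 (rho 0.69, r 0.75 without 2 mice). Cyp2c40 and Cyp2c69, which share words, had an r of 0.91 (rho 0.88, r 0.89 without 2 mice). Because the pairs were chosen for their likeness, these values are a description with no test. In the HFD control mice, Cyp4a10 was at 1610, 1960, 2960, 4000 and 3010 CPM and Cyp4a14 at 1400, 1890, 1990, 3860 and 2550 CPM, so both were lowest in replicate 1 and highest in replicate 4. With PCB 126 both were lowest in replicate 1, at 1230 and 639 CPM.

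**Figure D5:**
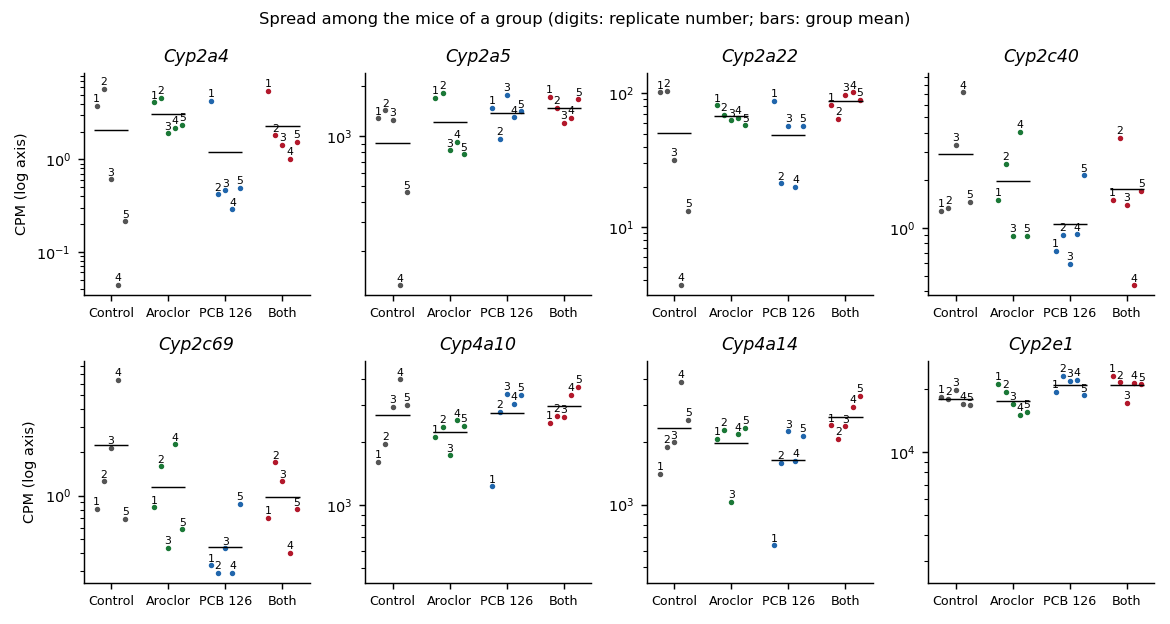
CPM (log axis) in each mouse of 7 P450 genes with wide spread within groups or shared deviations, and of Cyp2e1, in 4 groups of 5 mice. Digits give the replicate number and bars the group mean. HFD control replicate 4 is lowest in Cyp2a4, Cyp2a5 and Cyp2a22 and highest in Cyp2c40, Cyp2c69, Cyp4a10 and Cyp4a14.

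Other genes of the P450 system were read from the same fit. Of the 6 CAR and PXR readouts set aside from the set, 2 rose with the combined exposure, Cyp3a11 (2580 ± 645 against 4760 ± 1010 CPM, log2FC 0.89, adjusted p = 0.00652, edgeR) and Cyp2c29 (log2FC 0.81, adjusted p = 0.0437), and 0 of 6 after GC correction. Of 6 AhR markers, 1 rose, Cyp1a2, at 387 ± 99.4 CPM in HFD control, 1590 ± 606 CPM with PCB 126 and 775 ± 186 CPM with the combined exposure (log2FC 1.00, adjusted p = 0.00325, edgeR; 1.12 and 0.00827 after correction). Of 11 genes listed as partners of P450s or for making and breaking down heme, 3 rose (Cyb5a, Pgrmc1 and Fech) and 2 fell (Cyb5r3 and Alad) as counted, and 0 after correction. Of all genes tested, 15.8% rose and 17% fell with the combined exposure, and 9.13% passed the threshold after correction. These shares also stand beside the other lists of this and the next paragraph. P450 oxidoreductase, Por, was at 384 ± 107 CPM in HFD control and 367 ± 101 CPM with the combined exposure (log2FC -0.07, adjusted p = 0.83, edgeR), and the log2FC changed sign to 0.45 after correction (adjusted p = 0.108).

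Of 16 regulators of hepatic P450s, 4 rose (Arnt, Nr1h4, Nr3c1 and Bcl6) and 3 fell (Rxra, Cebpa and Foxa2) with the combined exposure. After GC correction 3 were higher, namely Arnt (log2FC 0.49, adjusted p = 0.00652, edgeR), Nr1i3, which encodes CAR (0.71, adjusted p = 0.0407), and Cebpa (0.44, adjusted p = 0.0162), and 0 were lower, so that Cebpa changed sign from -0.32. Of 14 targets of PPARα outside the P450s, 4 rose (Acot2, Acadm, Cd36 and Pex11a) and 1 fell (Plin2, log2FC -0.63, adjusted p = 0.00325), and Acot2, Pex11a and Plin2 also passed the threshold after correction. The Cyp4a genes, which are PPARα targets in the P450 set, are given above with 0 of 6 past the threshold. Of the lists by sex and zone within the set, the male-biased genes had 0 of 3, the female-biased genes 0 of 3, the pericentral genes 1 of 4 (Cyp2c50) and the periportal Cyp2f2 was not past the threshold.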

How the data were processed

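RNA-seq libraries of 20 mouse livers were analysed. Per the labels and the study's methods, the authors prepared stranded polyA libraries and deposited raw counts, 1 column per library, for Ensembl gene IDs; the submitters' processing notes name FastQC 0.10.1, STAR 2.6, HTSeq 0.10.0 and mm10/GRCm38.p6. Which annotation release was counted, and with which strand option, is not given in the sources used here. Columns were matched to mice by the sample titles; for HFD + PCB 126 replicate 2 the number inside the title differs, and the stated replicate was followed. No pair of libraries of a group agreed within sampling noise (chi-square divided by its degrees of freedom at least 19.7).

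The 15522 genes whose counts summed to 10 or more were scaled by TMM. The model of edgeR 4.0.16 (R 4.3.3) had 1 coefficient for each of 4 groups (16 residual degrees of freedom). Comparisons were tested by quasi-likelihood, two-sided, with p adjusted by Benjamini-Hochberg across these genes and a threshold of 0.05. The study's tool, DESeq2 (1.42.0 here), was an alternative. Total counts of at least 21836506 put more than 10 counts behind 1 CPM in each library, and the SE holds counting error and mouse spread. For the GC correction, a natural spline with 6 degrees of freedom of each library's log2 CPM deviation on transcript GC content (15516 genes with a value) entered the fit as an offset. GENCODE M21 gave symbols, lengths and GC content. On simulated counts for HFD control against the combined exposure (15394 genes), the fit recovered 77% of 200 genes changed by a log2FC of 1. The changed genes had a mean of at least 1 CPM, and 5 unchanged genes were called. No GC slope was simulated, so this recovery does not bear on calls made where the slopes of the groups differ. Other settings tried were RLE factors, filters, the replicate number as a block, only the groups compared, leaving out each mouse and, chosen after seeing the data, leaving out the 4 libraries of extreme GC slope.

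Genes given by mouse were the P450 genes past the threshold with the combined exposure, up to 8 per other comparison, and 16 genes listed for their role. The genes and lists were chosen with earlier results of these data known. Protein sequences were not used here, and 1 gene of the list of regulators is not reported here.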

Additional observations from a re-analysis of the deposited data

Results flagged for a closer look

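In groups of 5 mice, a highest or lowest value was picked out when its gap to the nearest other mouse exceeded 0.71 of the group's range. Of 116 groups looked at for 29 named genes, 11 met this, where chance gives about 1 in 20. They lay mostly in a few mice. HFD + Aroclor replicate 3 stood apart in Cyp2d40 at 110 CPM (others 61.1 to 72.5), in Cyp3a25 at 554 CPM (817 to 910) and in Cyp4a14 at 1030 CPM (2070 to 2330). HFD + PCB 126 replicate 1 was low in Cyp4a10 at 1230 CPM (2790 to 3400) and in Cyp4a12a at 292 CPM (481 to 522). HFD + PCB 126 replicate 5 was high in Cyp2c40 at 2.15 CPM (0.596 to 0.913) and in Cyp2c69 at 0.879 CPM (0.29 to 0.43). HFD control replicate 4 was high in Cyp2c69 at 6.4 CPM (0.688 to 2.14). With the combined exposure, replicate 3 was low in Cyp2j5 at 759 CPM (1020 to 1100) and in Cyp2j6 at 136 CPM (159 to 167), and replicate 1 was low in Cyp4a12a at 317 CPM (524 to 577).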

How the results depend on the processing

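For the combined exposure against HFD control, 9 P450 genes were higher and 3 lower. RLE factors, no filter, the groups compared alone and the replicate block kept both counts within 1.5 times, while filterByExpr, a filter of 1 CPM and DESeq2 each gave 6 lower, and an adjusted p under 0.01 gave 1 lower. The GC correction and the GC slope as a covariate gave 0 higher and 0 lower, the GC correction with the replicate block 0 higher and 1 lower, and leaving out the 4 libraries of extreme GC slope 3 higher and 0 lower. Against PCB 126 (5 higher, 6 lower), filterByExpr, the filter of 1 CPM and DESeq2 gave 8 higher, the groups compared alone 2 higher, an adjusted p under 0.01, the GC correction, the GC slope covariate and leaving out the 4 libraries 0 and 0, and the GC correction with the replicate block 0 higher and 1 lower. Against Aroclor (0), RLE factors and the replicate block gave 1 higher and DESeq2 6. For PCB 126 alone (0), filterByExpr and the filter of 1 CPM gave 1 higher, and DESeq2, the GC slope covariate and leaving out the 4 libraries gave 1 higher and 1 lower. The cause of these shifts was not tested. For Aroclor alone and the interaction no alternative gave a call. When single mice were left out, the counts for the combined exposure were 7 to 11 higher and 3 to 6 lower (6 without HFD control replicate 4, 5 without combined replicate 2). Against PCB 126 they were 0 to 9 higher (9 without PCB 126 replicate 1, 2 without PCB 126 replicate 2, combined replicate 1 or Aroclor replicate 4, and 3 without Aroclor replicate 5) and 1 to 7 lower. Against Aroclor they were 0 to 5 higher, and for PCB 126 alone 0 to 1 higher. Over all genes tested, the same fits gave 3887 to 5665 calls for the combined exposure and 245 to 3403 against PCB 126. Against Aroclor they gave 0 to 1011, and for PCB 126 alone 4 to 131.

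Log2FC of the combined exposure turned sign as follows. With the GC correction, Cyp2c23 had -0.0379, Cyp2j5 -0.0372, Cyp2j6 -0.169, Cyp4a10 -0.0589, Cyp4a12a -0.0994, Cyp4a14 -0.114 and Cyp4f14 0.011. With the GC correction and the replicate block, Cyp2c23 had -0.0666, Cyp2f2 0.0314, Cyp2j5 -0.038, Cyp2j6 -0.159, Cyp4a10 -0.0119, Cyp4a12a -0.0762 and Cyp4a14 -0.0684. With the GC slope covariate, Cyp2c23 had -0.193, Cyp2d10 0.0481, Cyp2d40 0.0245, Cyp2j5 -0.168, Cyp2u1 0.226, Cyp4a10 -0.248, Cyp4a12a -0.203, Cyp4a14 -0.249, Cyp4f13 0.116 and Cyp4v3 -0.0361. Without the 4 libraries, Cyp4a10 had -0.393, Cyp4a12a -0.233 and Cyp4a14 -0.33. With single mice left out, Cyp4a10 ranged from -0.00787 (without HFD control replicate 1) to 0.316, Cyp4a12a from -0.0328 (without the same mouse) to 0.272 and Cyp2c23 from -0.0758 (without combined replicate 2) to 0.234.

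No source says that the replicate numbers pair the mice, and not every same-number pair correlated (from -0.26 to 0.744, mean 0.0999, 13 of 30 over 0.1, against a mean of -0.0202 for different numbers), so the block was not used for the values reported; 10 of 20 libraries correlated best with their own number, a hint of pairing from the data alone. The replicate block gave 11 higher and 4 lower genes with the combined exposure (Cyp2u1 at -0.64, adjusted p = 0.0408, edgeR) and 7 higher and 6 lower against PCB 126. Over all genes tested the counts were 0 for Aroclor, 18 for PCB 126, 5089 for the combined exposure, 64 for it against Aroclor, 2589 against PCB 126 and 0 for the interaction. In that order, the replicate block gave 26, 101, 5292, 475, 3127 and 38, DESeq2 143, 310, 5577, 1343, 3626 and 1, the GC correction 0, 51, 1417, 5, 0 and 0, and leaving out the 4 libraries 151, 385, 461, 0, 0 and 1. The GC slope covariate gave 484 for Aroclor, 760 for PCB 126 and 523 for the combined exposure. For PCB 126, filterByExpr gave 68, the filter of 1 CPM 64, and an adjusted p under 0.01 and the groups compared alone 4. An adjusted p under 0.01 left 2867 for the combined exposure. Against Aroclor, RLE factors gave 107, no filter 13, filterByExpr 292 and the filter of 1 CPM 465. Of the 57 genes, 12 were below 1 CPM, and none of them passed the threshold with the combined exposure.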
